A study of Mus musculus with 4 samples.

Results

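The 9 genes described here encode proteins of the azurophil (primary) granule of neutrophil precursors and genes that accompany them in early myeloid progenitors. The granule enzyme genes are Mpo, Elane, Prtn3 and Ctsg, and the other 5 are Ms4a3, Plac8, Anxa3, Nkg7 and Hp. They were given as a list of symbols, and every probe set whose only symbol in the platform annotation was one of them was taken. This gave 1 probe set for each of the 9 genes, out of 34958 probe sets with a single symbol and 18194 genes, so no member had a choice of probe sets or a second reading.

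Azurophil granules form at the promyelocyte stage, the first stage of neutrophil development at which granule contents are made. Their serine proteases are stored active, packed on the proteoglycan serglycin, and myeloperoxidase makes hypochlorous acid from peroxide and chloride in the mature cell. Transcripts of these genes are known to appear already in multipotent and granulocyte-monocyte progenitors, before any granule can be seen, and they are used as marks of myeloid priming.

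Expression was measured on 4 Affymetrix arrays, 2 labelled Alox15-/- and 2 labelled WT. Alox15 encodes arachidonate 15-lipoxygenase, an enzyme that oxygenates polyunsaturated fatty acids, and the label Alox15-/- stands for its loss on both alleles. No other allele or agent is given. All samples were bone marrow cells of C57BL/6 mice aged 8 weeks, sorted without lineage markers and with c-Kit and Sca-1, and the labels call them HSCs (haematopoietic stem cells). Cells passing such a sort include multipotent progenitors as well as stem cells. Whether a replicate was 1 animal or a pool is not stated, so the p-values reflect only how far these samples scattered, some of which may be technical. Values are deposited log2 signals. A difference is the mean of the arrays labelled Alox15-/- minus the mean of the WT arrays, and it was tested with limma over all 18194 genes with Benjamini-Hochberg adjustment, at a threshold of 0.05.

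The label was checked first on the gene it names. Alox15 read 10.68 and 10.75 on the arrays labelled Alox15-/-, against 4.63 and 4.35 on the WT arrays, the opposite of what the label would give. The reading of the highest of 27 bacterial controls, which match no mouse transcript, is called the bacterial background below; it was 4.95 to 5.17 on the 4 arrays. Both WT readings of Alox15 lay under it. Taking it as the bound, Alox15 was at least 53.5-fold higher on the arrays labelled Alox15-/- (limma adjusted p = 0.00133). Neither the deleted stretch nor the place of the probe set is known here, so this reading may check nothing. Whether the labels of the groups were exchanged was not tested, and if they were, every direction below would reverse. All directions below are those of the labels. Pearson's r across probe sets was 0.990 between the arrays labelled Alox15-/-, 0.988 between the WT arrays and 0.986 to 0.988 between groups. Of the markers of the gate, Kit read 10.34 and 10.23 on the arrays labelled Alox15-/-, against 10.63 and 10.48 on the WT arrays. The progenitor receptor gene Flt3 read 10.93 and 10.86 on the arrays labelled Alox15-/-, against 10.87 and 10.98 on the WT arrays. Sca-1 has no reading here, because no probe set had Ly6a as its only symbol. Markers of other cell types were read in part: 4 of 15 measured T and NK cell markers, 1 of 9 of B and plasma cells, 2 of 15 of macrophages and monocytes and 2 of 9 of erythroblasts lay below the bacterial background on every array. Cd3e of T cells, Ms4a1 of B cells and Adgre1 of macrophages were among these. Others read well above it: Lat, an adaptor of T cell receptor signalling, read 9.43 and 9.34 on the arrays labelled Alox15-/-, against 9.74 and 9.74 on the WT arrays, and Vpreb1, of the surrogate light chain of early B cells, read 10.69 and 9.46 on the arrays labelled Alox15-/-, against 8.79 and 9.30 on the WT arrays. Cd3e, Ms4a1 and Adgre1 were picked after their values were seen.

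Start regions are shown for the 4 granule enzyme genes, because they make the granule's own enzymes and sit at 3 places in the genome, Elane and Prtn3 lying side by side. The 250 bases before the annotated start were taken from RefSeq promoters of GRCm38.p6, in which 7 of the 9 members had an entry. Capitals mark GAGGAA, a core of sites bound by the myeloid factor PU.1, and TGTGGT, a core of Runx sites, each on either strand, and TATAA on the printed strand.
Mpo (chr11:87793534-87793783, plus strand): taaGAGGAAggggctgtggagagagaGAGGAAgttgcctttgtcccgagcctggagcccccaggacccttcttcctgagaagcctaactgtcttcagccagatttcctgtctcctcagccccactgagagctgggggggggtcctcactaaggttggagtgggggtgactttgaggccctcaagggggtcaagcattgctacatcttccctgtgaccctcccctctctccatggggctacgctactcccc
Prtn3 (chr10:79879417-79879666, plus strand): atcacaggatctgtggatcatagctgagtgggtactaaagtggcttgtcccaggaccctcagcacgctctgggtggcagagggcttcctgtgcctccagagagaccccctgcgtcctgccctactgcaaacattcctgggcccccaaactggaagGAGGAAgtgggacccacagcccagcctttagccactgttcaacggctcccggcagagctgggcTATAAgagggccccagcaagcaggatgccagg
Elane (chr10:79886062-79886311, plus strand): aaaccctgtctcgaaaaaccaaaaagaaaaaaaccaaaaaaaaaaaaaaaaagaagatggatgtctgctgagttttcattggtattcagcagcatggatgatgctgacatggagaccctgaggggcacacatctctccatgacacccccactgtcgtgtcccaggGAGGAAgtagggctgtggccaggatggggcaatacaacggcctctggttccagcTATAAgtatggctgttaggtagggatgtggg
Ctsg (chr14:56102575-56102824, minus strand): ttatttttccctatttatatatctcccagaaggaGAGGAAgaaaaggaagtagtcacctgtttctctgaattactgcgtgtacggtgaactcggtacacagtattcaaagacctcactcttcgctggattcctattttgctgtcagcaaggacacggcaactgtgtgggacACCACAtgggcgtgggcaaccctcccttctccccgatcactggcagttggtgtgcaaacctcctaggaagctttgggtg

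GAGGAA stood 247 and 224 bases before the start of Mpo, 95 before that of Prtn3, 85 before that of Elane and 216 before that of Ctsg. Of all 8 member windows 5 held it, these 4 and 1 of the 2 of Plac8, while those of Ms4a3 and Nkg7 did not. The share was 23.3% over 32851 RefSeq windows of the same length. TATAA stood 32 bases before the start of Prtn3 and 31 before that of Elane, and it was found in 16% of all windows. TGTGGT, present in 14% of all windows, was found in that of Ctsg but not in the other 3. TTGCNNAA, a core of C/EBP sites searched on either strand and present in 9.56% of all windows, was found in none of the 4. The letters searched do not overlap one another in these windows. They were chosen with the expression values known, and a match is a description of letters, not of binding.

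Ctsg encodes cathepsin G, a chymotrypsin-like protease of the azurophil granule. It read 10.26 and 10.67 on the arrays labelled Alox15-/-, against 8.82 and 9.27 on the WT arrays. Both arrays labelled Alox15-/- lay above both WT arrays, with 0.99 between the nearest pair and at most 0.45 between arrays of a group. The difference was 1.42 ± 0.22 on the log2 scale (SE, n = 2 each), 2.67-fold with a 95% interval of 1.81 to 3.95. It did not pass the threshold (limma adjusted p = 0.373), although only 0.104% of all genes had a larger positive difference.

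Prtn3 encodes proteinase 3, an elastase-like protease and the target of the antibodies of some human vasculitis patients. It read 9.26 and 9.08 on the arrays labelled Alox15-/-, against 8.64 and 8.75 on the WT arrays. The groups did not overlap, and the difference was 0.48 ± 0.14 (limma adjusted p = 0.588), a ratio of 1.39 with an interval of 1.09 to 1.78.

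Elane, the next measured gene after Prtn3 on chromosome 10, encodes neutrophil elastase, and mutations of the human gene cause congenital and cyclic neutropenia. It read 6.57 and 7.44 on the arrays labelled Alox15-/-, against 5.57 and 6.73 on the WT arrays. The groups overlapped: WT replicate 2 lay above Alox15-/- replicate 1. The WT arrays were 1.17 apart, more than the difference of 0.86 ± 0.46 between groups (limma adjusted p = 0.708). The difference depended on single arrays. It was 0.27 without WT replicate 1, 0.42 without Alox15-/- replicate 2, 1.44 without WT replicate 2 and 1.29 without Alox15-/- replicate 1.

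Mpo encodes myeloperoxidase, the main protein of the azurophil granule. It read 12.91 and 12.95 on the arrays labelled Alox15-/-, against 12.56 and 12.57 on the WT arrays. Replicates were within 0.05 of each other and the groups 0.33 apart at their nearest. The difference of 0.36 ± 0.13, a ratio of 1.28, had limma adjusted p = 0.630, and with a prior variance that depends on the mean level it passed, at adjusted p = 0.0201.

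**Figure D1:**
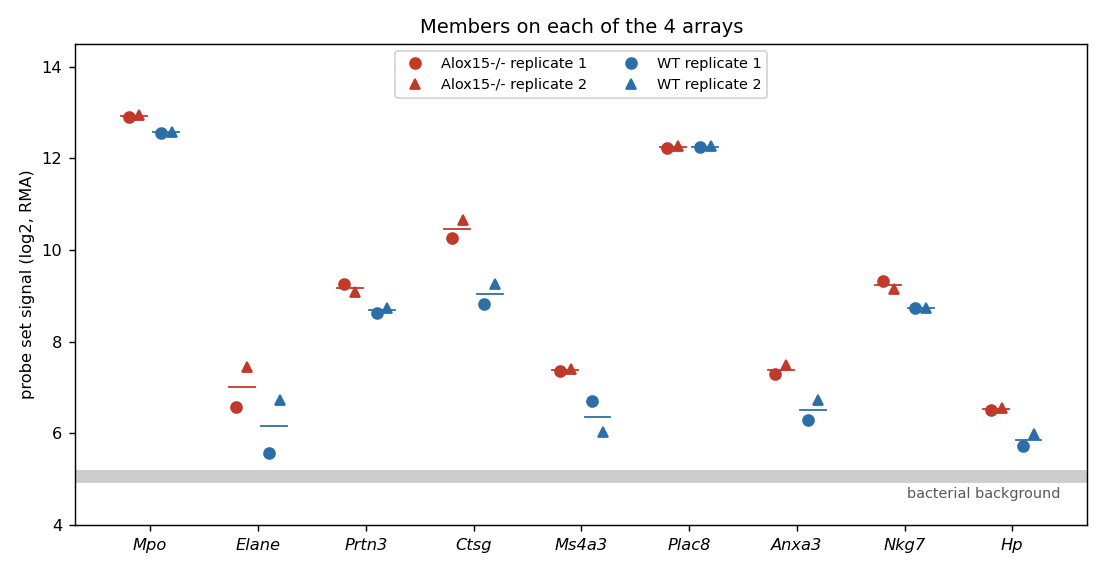
Signal of each of the 9 genes (log2, y axis) on the 2 arrays labelled Alox15-/- (red, left) and the 2 WT arrays (blue, right); circles are replicate 1, triangles replicate 2, short lines group means, and the grey band the bacterial background, 4.95 to 5.17 on the 4 arrays. Red lies above blue without overlap for 7 genes, Elane overlaps, and Plac8 is level.

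Ms4a3 encodes a membrane protein of the MS4A family, related to the CD20 gene, that is used to mark granulocyte-monocyte progenitors and their descendants in mice. It read 7.37 and 7.40 on the arrays labelled Alox15-/-, against 6.70 and 6.03 on the WT arrays. The groups did not overlap. The WT arrays were 0.67 apart, with replicate 2 the lower. The difference was 1.02 ± 0.24, a ratio of 2.02 with an interval of 1.33 to 3.07 (limma adjusted p = 0.566).

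Anxa3 encodes annexin A3, a calcium-dependent phospholipid-binding protein of neutrophil granules. It read 7.30 and 7.48 on the arrays labelled Alox15-/-, against 6.29 and 6.72 on the WT arrays. The groups did not overlap, and the difference was 0.88 ± 0.19 (limma adjusted p = 0.503), a ratio of 1.85 with an interval of 1.32 to 2.58.

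Hp encodes haptoglobin, the plasma protein that binds free haemoglobin. It is made mainly in liver and also in maturing granulocytes. It read 6.51 and 6.55 on the arrays labelled Alox15-/-, against 5.73 and 5.99 on the WT arrays. The groups did not overlap, and the difference was 0.67 ± 0.15 (limma adjusted p = 0.517).

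Nkg7 encodes a membrane protein of cytotoxic granules, best known from natural killer and T cells. It read 9.33 and 9.16 on the arrays labelled Alox15-/-, against 8.73 and 8.75 on the WT arrays, again without overlap. The difference was 0.51 ± 0.14 (limma adjusted p = 0.575). Of 15 measured T and NK cell markers, 7 had a positive difference, with a median of -0.10. Without overlap 5 were higher (33.3%, against 21.4% of all genes) and 2 were lower (13.3%, against 17.1%). Cd3e, Cd3g, Ncr1 and Tbx21 lay below the bacterial background on every array. The summed linear signal of that list was 3021 and 3106 on the arrays labelled Alox15-/-, against 3369 and 3310 on the WT arrays. Cd247, the brightest gene of the list on every array, weighed on these sums. It read 10.46 and 10.57 on the arrays labelled Alox15-/-, against 10.44 and 10.58 on the WT arrays, and was named after its values were seen.

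Plac8 encodes a small cysteine-rich protein found in myeloid and lymphoid progenitors. It read 12.22 and 12.28 on the arrays labelled Alox15-/-, against 12.24 and 12.27 on the WT arrays. The groups overlapped and the difference was -0.01, with a 95% interval of -0.33 to 0.31 (limma adjusted p = 0.993). As a ratio the interval runs from 0.80 to 1.24.

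**Figure D2:**
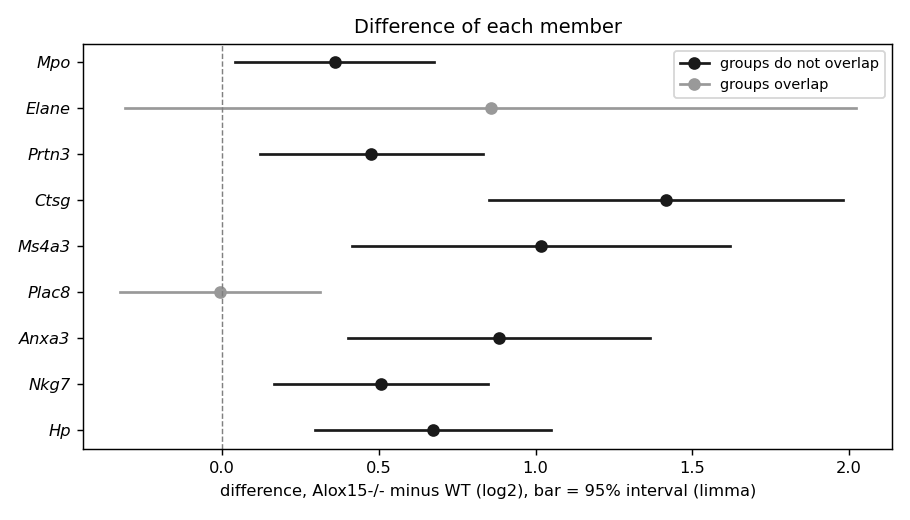
Difference of each gene between the arrays labelled Alox15-/- and WT (log2, x axis), with its 95% interval from limma; black marks genes whose groups do not overlap and grey those that overlap. The interval is widest for Elane, and those of Elane and Plac8 include 0.

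Of the 9 genes, 8 had a positive difference, against 53.8% of all genes tested, and the median was 0.67, against 0.02 over all genes. The groups did not overlap, with the arrays labelled Alox15-/- higher, for 7 of 9, against 21.4% of all genes. No member was lower without overlap, against 17.1% of all genes. At an unadjusted limma p under 0.05, 7 of 9 were higher, against 4.20% of all genes, and 0 were lower, against 3.57%. None passed the threshold after adjustment (adjusted p from 0.373 to 0.993). Over all genes 1 gene did, Alox15, which is 0.00550% of them. The genes were listed with results of these data known, so these counts describe them and are no test. In bulk samples, more cells that carry a transcript and more transcript per cell cannot be told apart.

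Relative to each gene's own mean, their average was 0.27 and 0.41 on the arrays labelled Alox15-/-, against -0.44 and -0.24 on the WT arrays. Replicates of a group thus differed by less than the groups did on this average. WT replicate 1 was the lowest array for Elane, Prtn3, Ctsg, Anxa3, Nkg7 and Hp, as well as for Mpo by 0.01, while WT replicate 2 was the lowest for Ms4a3. Elane and Ms4a3 stood at opposite ends: on WT replicate 2 Elane was 0.15 above its own mean, the highest of the 9, and Ms4a3 was 0.84 below its own, the lowest. Without WT replicate 1 the median difference was 0.50, and 8 of 9 differences were positive. Without Alox15-/- replicate 2 it was 0.59.

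**Figure D3:**
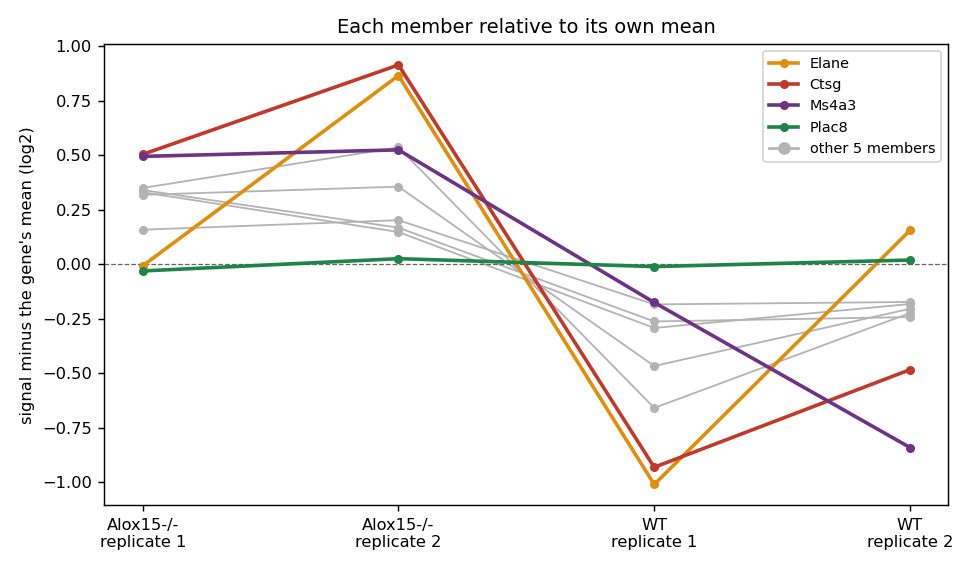
Signal of each gene minus its own mean over the 4 arrays (log2, y axis), for the 2 arrays labelled Alox15-/- and the 2 WT arrays; lines only join the points of a gene. Plac8 stays at 0, Ctsg is above its mean on both arrays labelled Alox15-/-, and Elane and Ms4a3 differ most on WT replicate 2.

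The genes whose profile over the 4 arrays was nearest to the average profile of the 9 were picked by Euclidean distance, among 13000 other genes above the bacterial background on every array. They were Psma8, Endod1, Selp, Slc35d1 and Pkib, with distances of 0.02 to 0.09 on the log2 scale. Selp, the adhesion receptor P-selectin, differed by 0.75 ± 0.15 and Endod1 by 0.70 ± 0.13, both without passing the threshold (limma adjusted p = 0.487 for each). Of the 9 genes themselves Hp was the nearest, at 0.09, and Elane the farthest, at 0.87. With 4 arrays many genes can share a profile, and the nearness is a description.

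Of 26 other azurophil granule genes and genes needed to build or fill the granule, 21 were measured. Of these, 18 had a positive difference (85.7%), against 53.8% of all genes, and the median was 0.09. Without overlap 8 were higher (38.1%, against 21.4% of all genes) and 0 were lower (against 17.1%). None passed the limma threshold. At an unadjusted p under 0.05, 3 of 21 were higher, against 4.20% of all genes, and 0 were lower, against 3.57%. Those 3 were G6pc3 at 0.45 ± 0.15 and the cathepsin genes Ctsz at 0.38 ± 0.13 and Ctsd at 0.34 ± 0.13. G6pc3, a glucose-6-phosphatase whose loss causes neutropenia in humans, lies on chromosome 11 like Alox15. Ctsc, the dipeptidyl peptidase that activates granule serine proteases, read 9.48 and 9.50 on the arrays labelled Alox15-/-, against 9.55 and 9.42 on the WT arrays. Srgn, which encodes serglycin, read 12.40 and 12.37 on the arrays labelled Alox15-/-, against 12.33 and 12.37 on the WT arrays. Ctsc, Srgn, Lyz2 and Calr were picked from the list after their values were seen. Lyz2, the lysozyme gene of myeloid cells, differed by 0.06 and Calr, a chaperone of myeloperoxidase, by 0.04.

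Of 12 listed inhibitors of these proteases 8 were measured, 6 with a positive difference, and none passed the limma threshold. The largest difference among those without overlap was that of Slpi, the secretory leukocyte protease inhibitor, which read 7.14 and 7.07 on the arrays labelled Alox15-/-, against 6.45 and 6.12 on the WT arrays. The difference was 0.82 ± 0.16 (limma adjusted p = 0.489). Serpinb1a, which encodes an inhibitor of elastase, cathepsin G and proteinase 3 kept inside the cell, differed by 0.22 ± 0.13, also without overlap. Serpina3n differed by 0.51 but lay below the bacterial background on every array.

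Of 20 listed relatives of Ctsg among the serine proteases of blood cells, 16 were measured, 8 of them below the bacterial background on every array, and 7 had a positive difference. The median was -0.01 and none passed the limma threshold. At an unadjusted p under 0.05, 0 of 16 were higher, against 4.20% of all genes, and 0 were lower, against 3.57%. Gzmm, a granzyme gene, differed by -0.28 ± 0.13, Gzmc by -0.34 and the tryptase gene Tpsab1 by 0.39, Gzmc and Tpsab1 below the bacterial background on every array.

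Among 18 listed transcription factors known to act on granule genes, 17 were measured and 10 had a positive difference. Without overlap 5 were higher (29.4%, against 21.4% of all genes) and 4 were lower (23.5%, against 17.1%). The median was 0.02 and none passed the limma threshold. At an unadjusted p under 0.05, 4 of 17 were higher, against 4.20% of all genes, and 0 were lower, against 3.57%. Cebpd, a C/EBP factor of later granulocyte stages, read 6.86 and 7.09 on the arrays labelled Alox15-/-, against 6.10 and 6.18 on the WT arrays. Its difference was 0.84 ± 0.14 (limma adjusted p = 0.423). Max, the partner of Myc, differed by 0.75 ± 0.17 and Irf8, a factor of the monocyte branch, by 0.62 ± 0.17. Cebpa, the factor required for granulocyte-monocyte progenitors, was picked after its values were seen. It read 9.94 and 9.85 on the arrays labelled Alox15-/-, against 9.42 and 9.56 on the WT arrays, a difference of 0.41 ± 0.13 (limma adjusted p = 0.618). Spi1, which encodes PU.1, differed by -0.05 and Gfi1 by -0.02, with overlap, and both were picked in the same way. The 4 lower without overlap were Runx1 at -0.32, Klf4 at -0.28, Cbfb, of the partner of Runx1, at -0.15 and Myb at -0.12, named here after their values were seen.

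**Figure D4:**
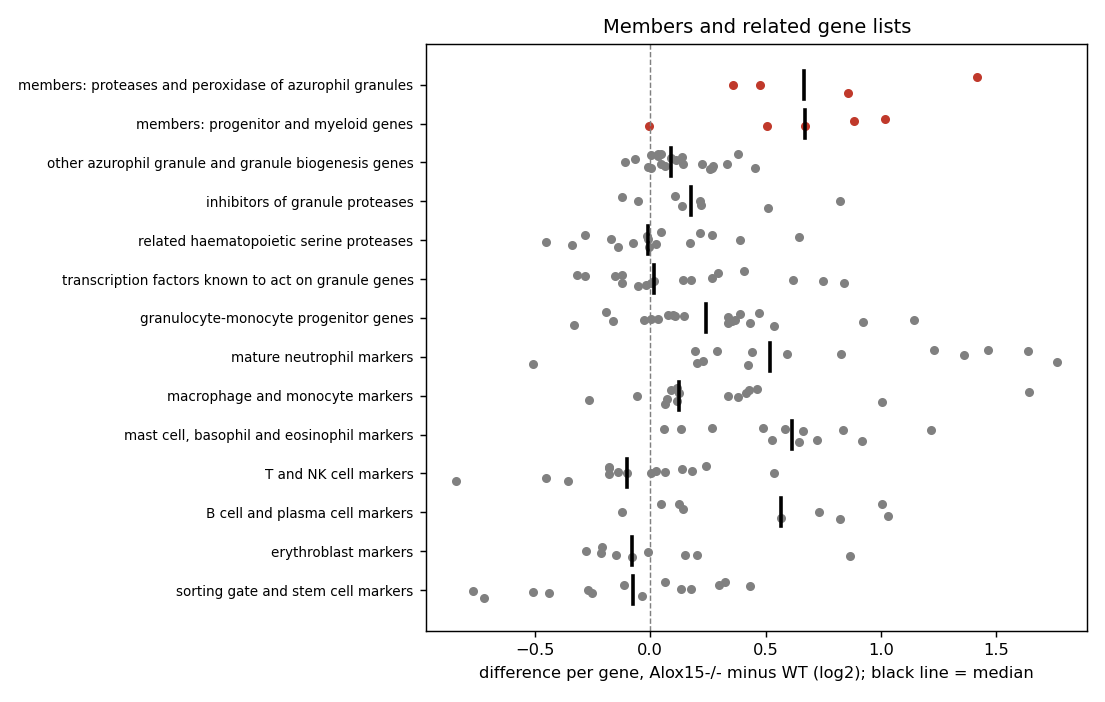
Difference of each measured gene of the 9 (red, in the top 2 rows) and of 12 related lists (grey), Alox15-/- minus WT on the log2 scale (x axis), with the median of each list as a black line. The medians are 0.67 for both groups of the 9 genes, 0.09 for other granule genes and -0.01 for related serine proteases. They are 0.62 for mast cell, basophil and eosinophil markers, 0.57 for B cell and plasma cell markers and 0.52 for mature neutrophil markers.

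Genes of granulocyte-monocyte progenitors, of which 20 of 24 were measured, had 16 positive differences and a median of 0.24. Without overlap 10 were higher (50%, against 21.4% of all genes) and 1 was lower (5%, against 17.1%), Fcer1g at -0.19, named after its value was seen. None passed the limma threshold. At an unadjusted p under 0.05, 5 of 20 were higher, against 4.20% of all genes, and 0 were lower, against 3.57%. Ly86, which encodes the RP105 partner MD-1, differed by 1.14 ± 0.29, Fcgr2b by 0.92 ± 0.25 and Fcgr3 by 0.54 ± 0.24, the last 2 being IgG receptors.

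Markers of some other cells had positive medians beside those of the 9 genes, and their part in the differences was not tested. No gene of these lists passed the limma threshold. Of 14 measured mature neutrophil markers 13 had a positive difference (92.9%, against 53.8% of all genes), and the median was 0.52. Without overlap 9 were higher (64.3%, against 21.4% of all genes) and 1 was lower (7.14%, against 17.1%). The summed linear signal of the 14 markers was 3301 and 2721 on the arrays labelled Alox15-/-, against 1056 and 1982 on the WT arrays. WT replicate 1 was thus the lowest for this list, as it was for each of the 9 genes but Ms4a3 and Plac8. S100a8, of a calcium-binding protein abundant in neutrophils, read 9.14 and 8.92 on the arrays labelled Alox15-/-, against 6.56 and 8.23 on the WT arrays. Ltf, the lactoferrin gene of later granules, read 8.17 and 6.89 on the arrays labelled Alox15-/-, against 6.09 and 6.25 on the WT arrays. Mmp8 lay below the bacterial background on every array. Mast cell, basophil and eosinophil markers had 12 of 12 positive differences and a median of 0.62. Of the 12, 7 were higher without overlap (58.3%) and 0 were lower. Their sums were 2307 and 2225 on the arrays labelled Alox15-/-, against 2002 and 1630 on the WT arrays. Fcer1a, Prg3, Epx and Ccr3 of that list lay below the bacterial background throughout. Gata2, counted also among the gate and stem cell markers, was the brightest gene of the mast cell list on every array and weighed on its sums. It read 10.38 and 10.24 on the arrays labelled Alox15-/-, against 10.28 and 10.08 on the WT arrays, with overlap, and was named after its values were seen. Macrophage and monocyte markers had 13 of 15 positive and a median of 0.12. Among the 15, 5 were higher without overlap (33.3%) and 1 was lower (6.67%). Their sums were 2103 and 1688 on the arrays labelled Alox15-/-, against 1365 and 1468 on the WT arrays. Adgre1 and Timd4 lay below the background throughout. C1qb of that list read 9.53 and 6.23 on the arrays labelled Alox15-/-, against 4.92 and 7.55 on the WT arrays, with overlap. Named after its values were seen, C1qb was the brightest gene of the list on Alox15-/- replicate 1 and weighed on its sum there. B cell and plasma cell markers had 8 of 9 positive and a median of 0.57. Of these markers 5 were higher without overlap (55.6%) and 0 were lower. Their sums were 2370 and 1483 on the arrays labelled Alox15-/-, against 981 and 1225 on the WT arrays. Vpreb1 was the brightest of them on every array. A higher reading at an unadjusted limma p under 0.05 was seen for 5 of 14 neutrophil markers and 5 of 12 of the mast cell list. It was seen for 4 of 15 of the macrophage list and 3 of 9 of the B cell list, against 4.20% of all genes. A lower reading at that p was seen for 1 neutrophil marker and for none of the other lists, against 3.57% of all genes.

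Markers of red cell precursors and of the gate had medians just below 0. Erythroblast markers had 3 of 9 positive differences and a median of -0.08, with sums of 7358 and 7495 on the arrays labelled Alox15-/-, against 8342 and 8675 on the WT arrays. Most of each sum was Car2, which read 12.74 and 12.77 on the arrays labelled Alox15-/-, against 12.95 and 12.98 on the WT arrays. Klf1, the erythroid factor, differed by 0.87 ± 0.14, while neither Hba-a1 nor Rhag exceeded the bacterial background on any array. Sorting gate and stem cell markers had 6 of 14 positive and a median of -0.07, with sums of 17470 and 17153 on the arrays labelled Alox15-/-, against 19263 and 18757 on the WT arrays. Hlf, a stem cell transcription factor, differed by -0.77 ± 0.13 and Meis1, a Hox cofactor, by -0.51 ± 0.16, both genes lying on chromosome 11 like Alox15. Hlf read 10.85 and 10.89 on the arrays labelled Alox15-/-, against 11.65 and 11.63 on the WT arrays. It was the brightest gene of the list on both WT arrays and weighed on the sums. Tek, on chromosome 4, differed by -0.72 ± 0.30. Without overlap 6 of the 14 were lower (42.9%, against 17.1% of all genes) and 3 higher (21.4%, against 21.4%). Besides Hlf, Tek and Meis1, the lower ones were Fgd5 at -0.44, Kit at -0.27 and Procr at -0.25, each on another chromosome than 11. The higher ones were Cd48 at 0.43, Slamf1 at 0.32 and Esam at 0.18. Apart from Hlf, Tek and Meis1, these genes were named here after their values were seen. No gene of the erythroblast and gate lists passed the limma threshold.

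Elane and Prtn3 lie side by side on chromosome 10 with 0 measured genes between them, and Plac8 and Anxa3 share chromosome 5 with 24 measured genes between them. Apart from each other, the nearest neighbours of this pair of protease genes were Plppr3 at 0.22 on one side and Med16 at -0.08 on the other. Ctsg lies among the chymase and granzyme genes of chromosome 14. Its neighbour Mcpt8, a basophil protease gene, read 7.33 and 8.06 on the arrays labelled Alox15-/-, against 7.69 and 6.41 on the WT arrays, with overlap, and the next gene on the other side, Gzme, differed by 0.17 below the bacterial background. Next to Ms4a3, Ms4a2 differed by 0.06 and Oosp2 by -0.16, while Oosp1, 2 places away, differed by 0.94. Next to Plac8, which was level, Hpse, the heparanase gene, differed by 1.07, 2 places away. The neighbours were taken by place in the gene order, 5 on each side, and none passed the limma threshold.

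**Figure D5:**
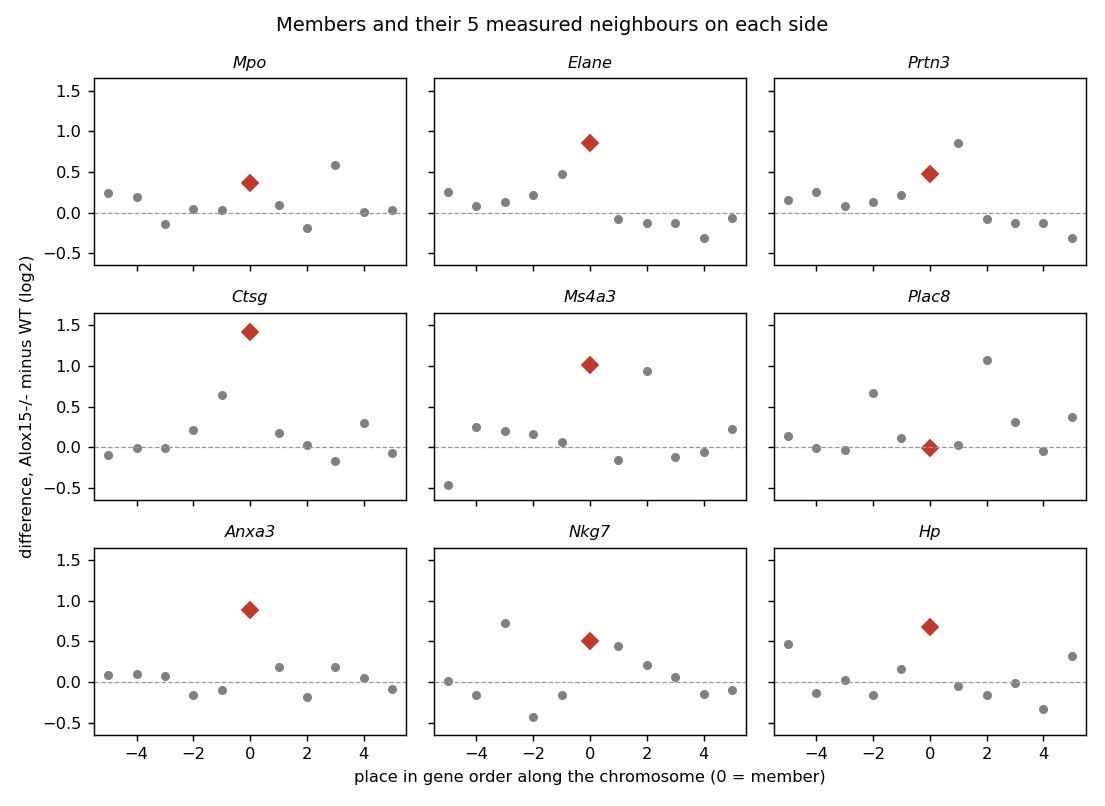
Difference of each of the 9 genes (red diamond, at 0 on the x axis) and of the 5 measured genes on each side in gene order (grey), Alox15-/- minus WT on the log2 scale (y axis). The medians of the neighbours run from -0.04 to 0.13; the neighbour at 1.07 is Hpse beside Plac8, and the highest neighbours of Elane and Prtn3 are each other.

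Mpo shares chromosome 11 with Alox15, with 281 measured genes between them. Among those 281 genes 37 had an unadjusted limma p under 0.05 (13.2%), 15 higher and 22 lower, and among the 100 measured genes nearest to Mpo 18 did (18%), 8 higher and 10 lower. The share was 7.59% over genes on other chromosomes and 7.77% over all genes. Of the genes near Mpo, 2 encode other peroxidases. Lpo, the lactoperoxidase gene and next to it, read 5.55 and 5.76 on the arrays labelled Alox15-/-, against 5.15 and 5.98 on the WT arrays, with overlap, and Epx, of eosinophil peroxidase and 3 places away, differed by 0.59 below the bacterial background. Tspoap1, next on the other side, differed by 0.03. Whether the place of Mpo on the chromosome bears on its difference was not tested.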

How the data were processed

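Signals were deposited by the authors as log2 values, 1 column per array, made with Affymetrix Expression Console 1.1 and RMA per the submitters' processing notes. RMA corrects background, quantile-normalizes arrays and summarises probe sets. The table holds 45101 probe sets and names no genome build. Per the labels' protocols the targets came from a whole-transcript sense kit, whereas the platform annotation is that of a 3' expression array, and the sources do not settle which applies. The number of arrays limits the precision.

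Probe sets with 1 symbol in the platform annotation were kept (932 had several, 9211 none), with the brightest probe set for each of 18194 genes. Groups came from sample titles. The fit was limma 3.58.1 in R 4.3.3 (lmFit, eBayes, two-sided, no block), tested on simulated data. The members and gene lists were chosen with earlier results of these data known. Named genes were the 9 members, Alox15, up to 3 genes per list with the largest difference and no overlap, and the 5 nearest profiles; others are marked or serve as cell type or neighbour checks. Gene order came from RefSeq GRCm38.p6. Alternatives covered normalization, dim genes, variance prior, array weights, probe sets, replicate block, chromosome 11 and leaving out each array. Figures used matplotlib 3.10.9.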

Additional observations from a re-analysis of the deposited data

How the results depend on the processing

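With limma as reported, 1 gene of 18194 and 0 of the 9 members passed the threshold. An unadjusted p under 0.05 was seen for 7 members, against 7.77% of all genes. The members were listed with results of these data known, so this count is no test. A prior variance that depends on the mean gave 22 genes and 1 member, Mpo. Testing every named probe set gave 2 genes, and leaving out the genes of chromosome 11 other than Mpo gave 0, since Alox15 lies there. Without variance moderation the 1 gene was Rac2 and Alox15 had adjusted p = 0.703; the cause was not tested. Leaving out 1 array gave 0 genes and 0 members each time, in fits with few degrees of freedom where the lone array is assumed to vary like the other group. The median difference of the members was 0.67 and ran from 0.50 to 0.69 without 1 array, with 8 to 9 of them positive. Plac8, at -0.01, changed sign and ran from -0.035 to 0.021 without 1 array, and was 0.0081 without WT replicate 2. The replicate block gave 1 gene and 0 members; replicate numbers share nothing that the labels state, and the deviations of same-numbered arrays had a correlation across genes of -0.02.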
